A study of Homo sapiens with 6 samples.

Results

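The G1 cyclins and inhibitors of cyclin-dependent kinases (CDKs) described here were 10 genes taken by name: the D-type cyclins CCND1, CCND2 and CCND3, the E-type cyclins CCNE1 and CCNE2, the CIP/KIP inhibitors CDKN1A and CDKN1B, and the INK4 inhibitors CDKN2A, CDKN2B and CDKN2C. Each was matched by its Ensembl identifier to 1 row of the count table, so they make up 10 of the 39327 rows that carry an identifier. Of the 10, 7 had enough reads to be tested, among 12821 genes tested in all, while CCND2, CDKN2A and CDKN2B did not. RNA was sequenced from CAL62, an established line of human anaplastic thyroid carcinoma (ATC) with a wild-type genotype in the labels, exposed for 48 h to erianin at 50 nM (3 libraries) or to DMSO, its solvent, at a matched concentration (3 libraries). Erianin is a natural bibenzyl compound from Dendrobium orchids. All 6 libraries came from this 1 line in the same serum-containing medium. The labels number the libraries without saying whether they came from separate cultures, so the p-values below measure the spread between these libraries, which may be technical.

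D-type cyclins bind and activate CDK4 and CDK6, and E-type cyclins bind and activate CDK2. The active kinases phosphorylate RB1 and its relatives, which then release E2F transcription factors and allow the genes of DNA replication to be transcribed. INK4 proteins bind CDK4 and CDK6 and keep D-type cyclins off them, whereas the CIP/KIP proteins p21 (CDKN1A) and p27 (CDKN1B) bind cyclin-CDK complexes and block CDK2 in particular. Loss of INK4 genes and excess of D-type cyclins are common in cancer.

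The line was checked against defining markers. Of 8 thyroid follicular markers, PAX8 stood at 419 to 739 CPM (read counts scaled to library size, with TMM factors) and FOXE1 at 1.07 to 2.28 CPM, whereas the others stayed under 1 CPM in every library, among them TG, SLC5A5 and DIO1, and TSHR and NKX2-1 had no count in any library. The epithelial keratin KRT8 reached 1182 CPM or more in every library and CDH1 stayed under 1 CPM. Summed over the list, the 6 epithelial markers stood at 2538 to 3419 CPM in DMSO and 2713 to 2904 CPM in erianin, and the 4 mesenchymal markers (VIM, CDH2, FN1 and ZEB1) at 6490 to 8427 CPM in DMSO and 4097 to 4641 CPM in erianin. PAX8 and the mesenchymal sum were thus lower in every erianin library than in any DMSO library. FN1 made up most of that sum, at 5272 to 6813 CPM in DMSO and 3112 to 3617 CPM in erianin. VIM and CDH2 were also lower in every erianin library, whereas ZEB1 overlapped between the groups (16.2 to 38.2 and 21.1 to 27.1 CPM). The part of PAX8 and the mesenchymal markers in the results below was not tested. All 3 leukocyte markers and all 3 endothelial markers stayed under 1 CPM in every library.

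One control library stood apart. DMSO replicate 3 differed from DMSO replicates 1 and 2 by a chi-square of 91.4 and 105 per gene. The value was 4.37 between DMSO replicates 1 and 2 and 3.80 to 4.80 among the erianin replicates. DMSO replicates 1 and 2 differed from the erianin libraries by 53.5 to 65.9 per gene, less than from DMSO replicate 3. The biological coefficient of variation that edgeR estimated was 0.139 over all libraries and 0.0421 without DMSO replicate 3. Results for the tested members, and for the lists around them as a whole, are therefore given over all 6 libraries and again without this library. For some named genes of these lists only the value over all 6 libraries is given. Reads counted on named genes ranged from 25776301 to 34107727 per library.

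Start regions of the members are shown first because the genes differ in what lies just upstream of them. Windows of the 250 bases before the RefSeq start site (GRCh38.p14) were present for 7 members: CCND3, CCNE1, CDKN1A, CDKN1B, CDKN2A, CDKN2B and CDKN2C. The stretches below run 5′ to 3′ on the gene's own strand. They end before the first base of the window that GENCODE annotates as an exon of the gene. Capitals mark matches to a GC box (GGGCGG or its reverse complement CCGCCC) or an E-box (CACGTG). CCNE1 is shown as a cyclin that was higher in every erianin library than in any DMSO library, CDKN1A and CDKN2C as inhibitors whose groups overlapped. The CDKN1A stretch lies within the annotated gene, since other transcripts of CDKN1A start upstream of it.
CCNE1, chr19:29811741-29811897, plus strand: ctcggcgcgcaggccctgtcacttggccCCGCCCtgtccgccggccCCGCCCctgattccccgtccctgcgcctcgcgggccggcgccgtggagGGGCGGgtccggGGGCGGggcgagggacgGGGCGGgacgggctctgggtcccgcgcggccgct
CDKN1A, chr6:36678464-36678657, plus strand: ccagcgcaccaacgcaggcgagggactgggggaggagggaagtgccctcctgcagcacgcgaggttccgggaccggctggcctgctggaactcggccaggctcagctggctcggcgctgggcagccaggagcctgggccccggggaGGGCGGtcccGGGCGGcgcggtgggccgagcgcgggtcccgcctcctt
CDKN2C, chr1:50960495-50960744, plus strand: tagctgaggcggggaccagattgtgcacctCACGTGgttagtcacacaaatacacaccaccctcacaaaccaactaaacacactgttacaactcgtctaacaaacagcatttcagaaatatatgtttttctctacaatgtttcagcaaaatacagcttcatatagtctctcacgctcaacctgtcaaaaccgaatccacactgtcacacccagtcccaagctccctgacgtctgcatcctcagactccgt

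The CCNE1 stretch of 157 bases held 5 GC boxes and was 83.4% G or C, the CDKN1A stretch of 194 bases held 2 and was 76.8% G or C, and the CDKN2C stretch of 250 bases held none and was 45.6% G or C. Over the full windows, GC boxes numbered 7 in CCNE1, 5 in CCND3, 4 in CDKN1A, 2 in CDKN2B and 1 in CDKN1B. The CCND3 window began within an annotated exon of the gene, and the CDKN1B window held only 6 bases before one. The GC boxes of these windows, and the further ones of CCNE1 and CDKN1A, thus lay past an annotated exon start. At least 1 GC box was present in 42.3% of 27305 windows of the same length across the RefSeq genes. The CDKN2C window held 1 E-box, a motif found in 6.49% of all windows. None of the 7 windows held TATAAA, the E2F motifs TTTGGCGC, TTTCCCGC or TTTCGCGC, the cAMP response element TGACGTCA, the AP-1 motif TGANTCA or the FOXO motif GTAAACA, searched on both strands; none of the motifs contains another. These letters were present in 11.1%, 0.553%, 1.42%, 0.469%, 1.77%, 6.60% and 2.98% of all windows, respectively, so most promoters lack them too. The CDKN2A window (chr9:21995325-21995574) lay beyond the outermost annotated 5′ end of the gene, at 21995301. The sequence just after this window was not found whole in a GENCODE transcript of CDKN2A. Starts further inside the gene were not searched, so the window may not be the promoter of the p16 transcript.

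Per unit of gene length, in the TPM that the authors deposited, CCND1 was the most abundant of the 10 genes in both groups and the order of the 8 highest was the same in both. In DMSO the mean TPM was 257 ± 25.9 (SD, n = 3 here and for the following values) for CCND1, 103 ± 27.5 for CDKN1A, 53.7 ± 3.03 for CDKN1B and 36.1 ± 3.30 for CCND3. CDKN2C followed at 17.9 ± 3.70, CCNE1 at 12.2 ± 0.312, CCNE2 at 1.22 ± 0.865 and CCND2 at 0.0464 ± 0.0471. Down to CCND2, the libraries of neighbouring genes in this order did not overlap. CCND2, CDKN2A and CDKN2B overlapped one another at the bottom of the DMSO order, as CDKN2A and CDKN2B did in erianin. In erianin the TPM means were 216 ± 10.2 for CCND1, 135 ± 6.49 for CDKN1A, 78.6 ± 2.18 for CDKN1B and 44.6 ± 2.66 for CCND3. They were 24.9 ± 1.71 for CDKN2C, 18.3 ± 1.30 for CCNE1, 2.35 ± 0.482 for CCNE2 and 0.187 ± 0.131 for CCND2. CAL62 transcripts of this group thus came mainly from 1 D-type cyclin and both CIP/KIP genes. The TPM columns, over rows with an identifier, summed to 73.4%, 72.6% and 59.1% of the nominal total in DMSO replicates 1 to 3. In erianin they summed to 77.2%, 75.1% and 78.3%, so these means order genes within a group and give no change between groups.

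**Figure D1:**
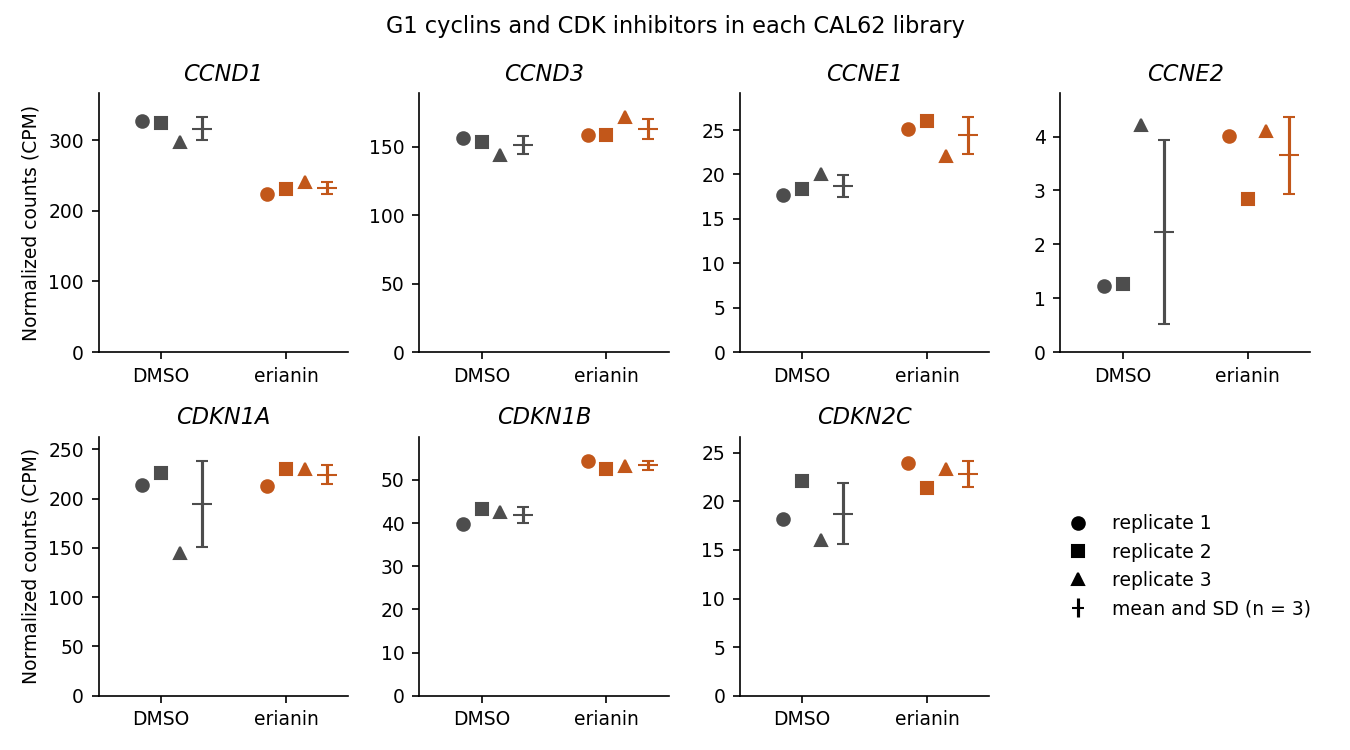
TMM-scaled CPM (vertical axes from 0) of the 7 tested members in each DMSO library (grey) and each erianin library (orange), with marker shape for the replicate number and the mean with its SD (n = 3) at the right of each group. The erianin points of CCND1 lie below all DMSO points and those of CCND3, CCNE1 and CDKN1B above them, while DMSO replicate 3 lies far from the other DMSO points for CCNE2 (4.21 against 1.23 and 1.26 CPM) and CDKN1A (145 against 214 and 226 CPM).

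None of the 7 tested members was called at an adjusted p under 0.05 with an absolute log2 fold change over 0.5 (edgeR quasi-likelihood test, Benjamini-Hochberg over all genes), against 8.73% of all tested genes, which split into 5.37% higher and 3.36% lower with erianin. On adjusted p alone 2 of 7 passed, CDKN1B higher and CCND1 lower, where 14.9% of all genes passed, 7.22% higher and 7.69% lower. The CPM ranges of the groups were apart for 4 of 7 members (CCND1, CCND3, CCNE1 and CDKN1B), and for 38.7% of all genes. The median log2 fold change was 0.29 over the 7 members and 0.00 over all tested genes, with 6 members on the positive side. With DMSO replicate 3 left out, edgeR called 1 of 7 members (CCNE2, higher) where 17.5% of genes were called, and adjusted p alone passed 4 of 7 (CCNE1, CCNE2 and CDKN1B higher, CCND1 lower) where 55.2% of genes passed. The median over the members was then 0.17 and over all genes 0.02. In bulk RNA a change in the share of cells in a phase of the cycle and a change in RNA per cell cannot be told apart.

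CCND1 encodes cyclin D1, the D-type cyclin induced by mitogen signaling through the RAS-ERK cascade, and lies on chromosome 11 (69641087 to 69654474, plus strand, GRCh38, as for the positions below, from GENCODE 29). Its level was 327, 324 and 297 CPM in DMSO replicates 1 to 3 and 224, 231 and 241 CPM in the erianin replicates. Every erianin library was below every DMSO library. CCND1 fell by 0.45 on the log2 scale (SE 0.07, 95% interval -0.61 to -0.28), an edgeR estimate of -26.6%, and passed on adjusted p alone (0.00901) but not on fold change. Without DMSO replicate 3 the log2 change was -0.49 (edgeR adjusted p = 7.29e-12). With either set of libraries the size of the change was just under the threshold of 0.5. On the authors' TPM scale, with limma on log2(TPM + 1), the log2 change was -0.25 and adjusted p was 0.127. The median of all genes stood at 0.18 on that scale, so CCND1 was further from the median than from 0. The call on adjusted p was also lost when any 1 of the erianin libraries was left out (edgeR adjusted p = 0.0561 to 0.0652), with log2 values of -0.48 to -0.43.

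CCND3 encodes cyclin D3, a close relative that activates the same kinases, and lies on chromosome 6 (41934933 to 42050357, minus strand). Its level was 156, 153 and 144 CPM in DMSO and 159, 158 and 172 CPM in erianin. The groups did not overlap, but the highest DMSO library and the lowest erianin library were close, at 156 and 158 CPM. The log2 difference was 0.11 (SE 0.07, 95% interval -0.06 to 0.28) and did not pass (edgeR adjusted p = 0.342). Leaving out DMSO replicate 3 gave 0.07 (edgeR adjusted p = 0.183).

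CCND2 encodes cyclin D2 and lies on chromosome 12 (4273772 to 4305350, plus strand). It had 3, 0 and 2 reads in DMSO and 5, 14 and 4 reads in erianin. In reads each erianin library held more than any DMSO library, but in CPM the groups overlapped, with 0.114 in erianin replicate 3 and 0.123 in DMSO replicate 1. These counts are at the edge of detection, where 3 reads correspond to 0.0880 to 0.116 CPM before TMM scaling. The sums of 5 and 23 reads gave a ratio of 4.14 per read (95% interval 1.54 to 13.9, counting error only, and erianin replicate 2 alone held 14 of the 23). When genes with few reads were kept in the fit, edgeR gave an adjusted p of 0.293.

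The 3 D-type cyclins were also compared within each library, where library scaling cancels. CCND1 made up 87.7%, 87.8% and 87.5% of their summed TPM in DMSO and 82.7%, 83.1% and 82.7% in erianin. CCND3 made up nearly all of the rest, 12.3 ± 0.123% (SD, n = 3) in DMSO and 17.1 ± 0.276% (SD, n = 3) in erianin. The difference of the CCND1 means, -4.84 percentage points, was many times the spread within either group, and it was -4.91 points without DMSO replicate 3. An exact two-sided permutation test gave p = 0.1, the smallest that 3 libraries against 3 can give. The ratio of CCND1 to CCND3 in TPM was 7.13, 7.20 and 7.04 in DMSO and 4.81, 4.95 and 4.78 in erianin. DMSO replicate 3, which stood apart for many genes, did not stand apart in this ratio.

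**Figure D2:**
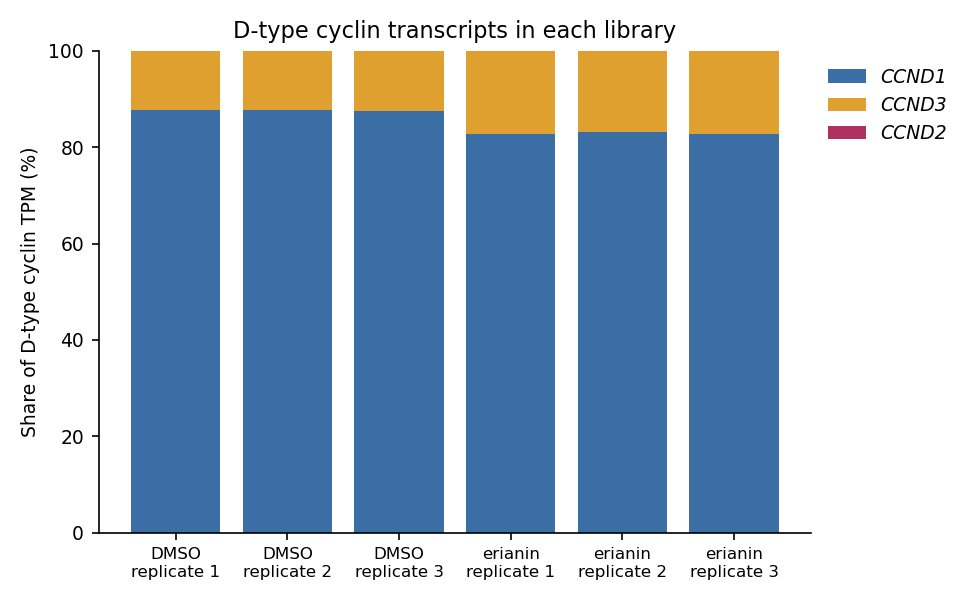
Stacked bars giving the share (%, from 0 to 100) of CCND1, CCND3 and CCND2 in the summed TPM of the D-type cyclins in each of the 6 libraries; CCND2, at most 0.133%, is too thin to see. CCND1 takes 87.5% to 87.8% in the DMSO libraries and 82.7% to 83.1% in the erianin libraries, with CCND3 filling the rest.

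CCNE1 encodes cyclin E1, which drives CDK2 at the start of S phase, and lies on chromosome 19 (29811898 to 29824308, plus strand), just beyond the GC-box-rich stretch printed above. Its level was 17.7, 18.4 and 20.1 CPM in DMSO and 25.1, 26.0 and 22.1 CPM in erianin. All 3 erianin libraries were above all 3 DMSO libraries, with DMSO replicate 3 and erianin replicate 3 nearest to each other. The log2 difference was 0.38 (SE 0.11, 95% interval 0.13 to 0.63), and its edgeR adjusted p of 0.0518 missed the threshold by little. Whether CCNE1 passed on adjusted p depended on the processing: it did in 8 of 20 fits, among them DESeq2 (adjusted p = 0.0180) and edgeR without DMSO replicate 3 (log2 difference 0.43, adjusted p = 5.90e-05). Its values over the 20 fits ran from 0.33 to 0.58 on the log2 scale and were all positive. The limma fits on TPM were among the 8 and gave the highest value. In those fits the median of all genes was itself at 0.12 to 0.20.

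CCNE2 encodes cyclin E2, a second activator of CDK2, and lies on chromosome 8 (94879770 to 94896678, minus strand). It had 30, 41 and 131 reads in DMSO and 137, 99 and 144 reads in erianin, or 1.23, 1.26 and 4.21 CPM against 4.01, 2.83 and 4.11 CPM. DMSO replicate 3 thus lay above all erianin libraries in CPM, at 337% of the mean of the other DMSO libraries. Over all 6 libraries the log2 difference was 0.69 (SE 0.46, 95% interval -0.38 to 1.77) and did not pass (edgeR adjusted p = 0.355). Without that library it was 1.54 (SE 0.24, 95% interval 1.06 to 2.02), and CCNE2 was called higher (edgeR adjusted p = 1.48e-06). The single library decided this result. CCNE2 overlaps INTS8 and NDUFAF6 on the opposite strand, and whether counting used the strand is not stated. INTS8 had 1166, 1432 and 1853 reads in DMSO and 1805, 1793 and 1784 in erianin, with DMSO replicate 3 again the highest of its group. NDUFAF6 had 466, 567 and 537 reads in DMSO and 519, 622 and 640 in erianin, and there DMSO replicate 3 was not the highest. The part of either gene in the CCNE2 count was not tested. Within the E-type cyclins CCNE2 made up 5.62%, 5.54% and 15.2% of the TPM in DMSO and 12.0%, 8.50% and 13.7% in erianin, so CCNE1 was the main E-type transcript in every library.

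CDKN1B encodes p27, which holds cyclin E-CDK2 inactive in resting cells, and lies on chromosome 12 (12715058 to 12722371, plus strand). Its level was 39.9, 43.1 and 42.6 CPM in DMSO and 54.5, 52.4 and 53.3 CPM in erianin. Both groups were tight and far apart, and DMSO replicate 3 sat between the other DMSO libraries. CDKN1B rose by 0.35 on the log2 scale (SE 0.08, 95% interval 0.17 to 0.53), an increase of 27.6%, and passed on adjusted p alone (edgeR adjusted p = 0.0246). Without DMSO replicate 3 the value was 0.36 (edgeR adjusted p = 8.22e-06). The call was lost, with a log2 value of 0.25, when each library's trend on gene length was removed (adjusted p = 0.0917). It was also lost without any of the other 5 libraries (edgeR adjusted p = 0.0652 to 0.127, log2 values 0.31 to 0.37).

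CDKN1A encodes p21, a CIP/KIP inhibitor induced in the DNA damage response, and lies on chromosome 6 (36676460 to 36687339, plus strand). Its level was 214, 226 and 145 CPM in DMSO and 213, 230 and 231 CPM in erianin. DMSO replicate 3 was at 65.9% of the mean of the other DMSO libraries, and those libraries lay within the erianin range. The log2 difference was 0.20 (SE 0.16, 95% interval -0.16 to 0.57) and did not pass (edgeR adjusted p = 0.433). Without DMSO replicate 3 it was 0.02 (SE 0.04, 95% interval -0.07 to 0.11, edgeR adjusted p = 0.678). The call did not depend on that library, but the size of the difference did.

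CDKN2C encodes p18, an INK4 inhibitor of CDK4 and CDK6, and lies on chromosome 1 (50960745 to 50974633, plus strand). Its level was 18.15, 22.12 and 15.99 CPM in DMSO and 23.9, 21.4 and 23.3 CPM in erianin. DMSO replicate 2 lay inside the erianin range and the others below it. The log2 difference was 0.29 (SE 0.14, 95% interval -0.03 to 0.60, edgeR adjusted p = 0.202), and 0.17 without DMSO replicate 3 (edgeR adjusted p = 0.0952).

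**Figure D3:**
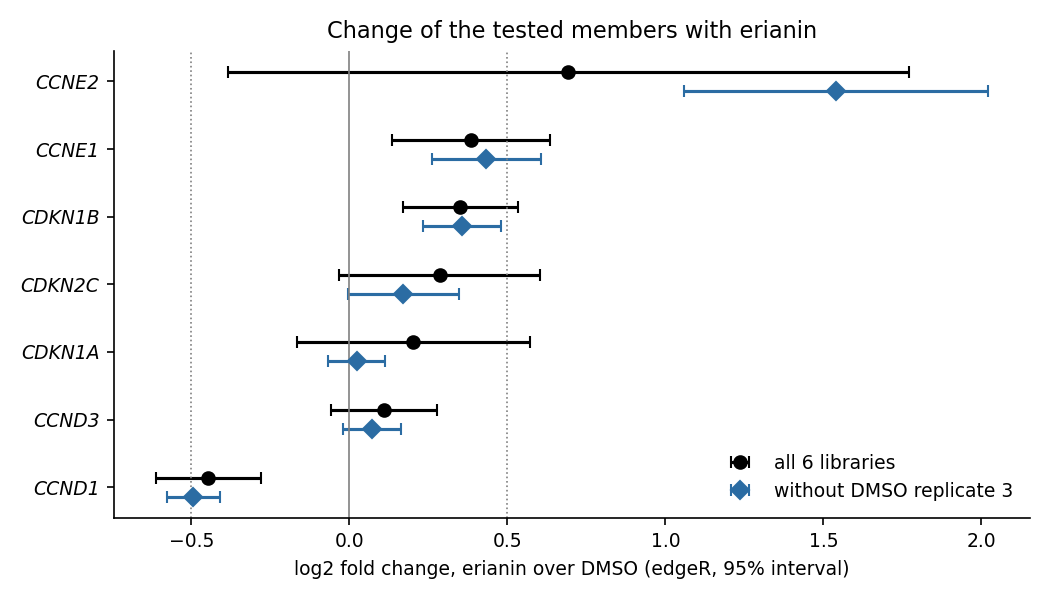
log2 fold change of erianin over DMSO (horizontal axis) with its 95% interval from edgeR for the 7 tested members, over all 6 libraries (black circles) and without DMSO replicate 3 (blue diamonds), with dotted lines at the fold-change threshold of 0.5 in either direction. CCND1 sits at -0.45 and -0.49 and CDKN1B at 0.35 and 0.36 in the respective fits, while CCNE2 moves from 0.69 to 1.54 and its interval narrows.

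CDKN2A and CDKN2B, which encode the INK4 inhibitors p16 and p15, were close to silent in CAL62. CDKN2A lies on chromosome 9 (21967753 to 21995301, minus strand) and had 1 read, in DMSO replicate 3, among the 191603042 reads of all libraries. CDKN2B lies beside it (22002903 to 22009363, minus strand) and also had 1 read, in erianin replicate 2. Both were at or under the 3 reads that a count of 0 allows, so no fold change is given for either. The transcripts of these genes share an identical run of 80 bases (21971027 to 21971106 in CDKN2A and 22006066 to 22006145 in CDKN2B), and no other pair of members shared more than 25 bases. A read lying within that run could come from either gene.

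The genes around them differed in level. In their order along chromosome 9, FOCAD stood at 67.1 to 93.7 CPM and KLHL9 at 48.6 to 57.7 CPM over the 6 libraries. HACD4, which lies between FOCAD and KLHL9, had 4 reads in all, and IFNE had 22 reads in DMSO and 4 in erianin. Next to CDKN2A, the methylthioadenosine phosphorylase gene MTAP had 20 reads in DMSO and 51 in erianin, or 0.123 to 0.586 CPM. The antisense RNA gene CDKN2B-AS1 had 1 read, in DMSO replicate 2. Beyond CDKN2B, DMRTA1 stood at 1.77 to 3.83 CPM and ELAVL2 at 12.1 to 20.5 CPM. The genes under 1 CPM in every library thus included IFNE, MTAP, CDKN2A, CDKN2B-AS1 and CDKN2B, which follow one another in the listed order. Of the 5 neighbours tested, DMRTA1 rose by 0.75 on the log2 scale (edgeR adjusted p = 0.0436). MTAP had a log2 difference of 1.11 (edgeR adjusted p = 0.0998) on very few reads. Without DMSO replicate 3, 2 of the 5 neighbours were called higher, where 17.5% of all genes were called.

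**Figure D4:**
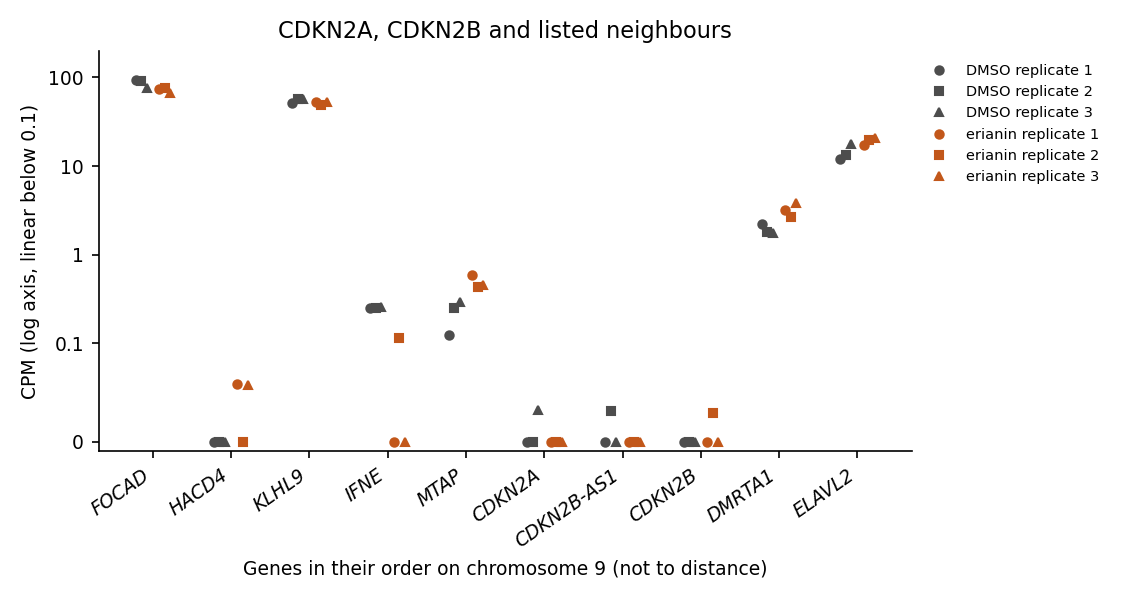
CPM (logarithmic vertical axis, linear below 0.1) of CDKN2A, CDKN2B and 8 listed neighbours in their order on chromosome 9, with equal spacing, for each DMSO library (grey) and each erianin library (orange). IFNE, MTAP, CDKN2A, CDKN2B-AS1 and CDKN2B lie under 1 CPM in every library. KLHL9 (48.6 to 57.7 CPM) comes before them, and DMRTA1 (1.77 to 3.83 CPM) and then ELAVL2 (12.1 to 20.5 CPM) after. HACD4, before KLHL9, also lies under 1 CPM in every library.

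With p16 and p15 near 0, the INK4 transcripts of CAL62 came from CDKN2C and from CDKN2D, the p19 gene, which was examined among the other CDK inhibitors. CDKN2D made up 75.2%, 71.2% and 61.2% of INK4 TPM in DMSO and 74.7%, 78.3% and 76.3% in erianin, with CDKN2C nearly all of the rest. CDKN2D stood at 22.2, 22.1 and 10.2 CPM in DMSO and at 28.6, 31.1 and 30.4 CPM in erianin. CDKN1C, the p57 gene and last CIP/KIP relative, stood at 28.9, 32.2 and 14.4 CPM in DMSO and at 38.4, 44.5 and 43.4 CPM in erianin. For both genes every erianin library was above every DMSO library, and DMSO replicate 3 was far below its group. Over all libraries neither passed, with log2 differences of 0.73 for CDKN2D (edgeR adjusted p = 0.115) and 0.74 for CDKN1C (edgeR adjusted p = 0.105). Without DMSO replicate 3 the differences were smaller, 0.43 for CDKN2D (edgeR adjusted p = 9.74e-06) and 0.46 for CDKN1C (edgeR adjusted p = 2.87e-06). Both then passed on adjusted p alone, as 55.2% of all genes did in that fit, and stayed under the fold threshold. CDKN3, a phosphatase that acts on CDKs, had a log2 difference of -0.18 (edgeR adjusted p = 0.498), and of 0.03 without DMSO replicate 3.

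Ratios between members set inhibitors against cyclins within a library. The summed TPM of CDKN1A and CDKN1B was 0.540, 0.580 and 0.475 times that of the D-type cyclins in DMSO and 0.825, 0.835 and 0.800 times in erianin. The TPM ratio of CCND1 to CDKN1B was 5.18, 4.75 and 4.41 in DMSO and 2.60, 2.78 and 2.86 in erianin. The TPM ratio of CCNE1 to CCND1 was 0.0436, 0.0458 and 0.0546 in DMSO and 0.0904, 0.0912 and 0.0740 in erianin. The TPM ratio of CDKN1A to CDKN1B, by contrast, was 2.197, 2.139 and 1.390 in DMSO and 1.60, 1.79 and 1.77 in erianin, and its groups overlapped. In the first 3 ratios the groups did not overlap, and DMSO replicate 3 lay outside the range of the other DMSO libraries in all 4. CCND1, the 1 tested member with a negative log2 difference, is part of each of these 3, so their separation follows in part from the single-gene values. How often other gene pairs separate was not computed. Of single genes 38.7% did. The pairs were not among the planned results. These ratios concern transcripts and rest on the same libraries as the single-gene values.

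Lists of genes that act with the members were counted in the same edgeR fit, which held 101 of 102 matched genes in 9 lists. In these lists 7 genes were called higher and 2 lower, against the 5.37% and 3.36% of all genes given above. Counts without DMSO replicate 3 are to be read against that fit's own shares over all genes, 17.5% called and 55.2% passing on adjusted p.

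Among the 8 tested kinases and activating partners, CDC25A, the phosphatase that activates CDK2, was called higher at 0.55 on the log2 scale (edgeR adjusted p = 0.0295). That call was lost without DMSO replicate 3, where CDC25A was at 0.44 and under the fold threshold (edgeR adjusted p = 0.000123). CDK4 stood at 336, 329 and 193 CPM in DMSO and 244, 227 and 231 CPM in erianin, with DMSO replicate 3 below all other libraries. Its log2 difference was -0.29 over all libraries (edgeR adjusted p = 0.359), and it fell by 0.51 without that library (edgeR adjusted p = 3.47e-12). CDK6 had a log2 difference of 0.20 (edgeR adjusted p = 0.374), and 0.38 without that library (edgeR adjusted p = 6.45e-07). The log2 differences were 0.08 for CDK2, 0.18 for CDK7 and 0.25 for CCNC, and 0.06, 0.22 and 0.29 without DMSO replicate 3. CCNH and MNAT1, the partners of CDK7, changed sign with that library, from -0.10 to 0.34 and from -0.05 to 0.14. CDK3 had too few reads to be tested. Of the 8 genes, 1 passed on adjusted p over all libraries and 6 did without DMSO replicate 3 (5 higher and 1 lower), and the median was 0.13 and 0.26, respectively.

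The substrates of these kinases and the factors they hold came next. RB1 had a log2 difference of -0.34 (edgeR adjusted p = 0.325), which was -0.03 without DMSO replicate 3, a library with 42.6 CPM against 23.7 to 25.5 CPM in the other 5. Its relative RBL2 was at -0.13 (edgeR adjusted p = 0.397) and at -0.18 without that library. Of 10 E2F and DP factors, E2F7, a repressor of E2F targets, rose by 0.58 (edgeR adjusted p = 0.0314), and E2F5, which pairs with the RB1 relatives, fell by 0.74 (edgeR adjusted p = 0.0111). Both were also called without DMSO replicate 3, at 0.75 and -0.63. TFDP2, a partner of E2F proteins, fell by 0.37 and passed on adjusted p alone (0.0263 in edgeR), while the abundant E2F4 and TFDP1 had differences of -0.12 and -0.01. The median of these factors was -0.03 over all libraries and -0.04 without DMSO replicate 3, when 5 of 10 passed on adjusted p.

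Downstream genes depended on the control library as well. Of 20 E2F target genes of DNA replication none was called in either fit, and 2 passed on adjusted p alone over all libraries, where 14.9% of all genes did. These were MCM5 (-0.37, edgeR adjusted p = 0.0183) and CDC45 (-0.39, edgeR adjusted p = 0.0204), which are named here after their values were seen. Without DMSO replicate 3, 13 of the 20 passed on adjusted p, 6 higher and 7 lower, and the list median went from -0.04 to 0.01. The most abundant targets had log2 differences of -0.18 for MCM7, 0.04 for MCM2 and -0.05 for TK1 over all libraries. Without DMSO replicate 3 these were -0.28, 0.01 and -0.19. MCM7 and TK1 then passed on adjusted p (4.64e-07 and 0.000528 in edgeR). Of 10 mitotic cyclins and kinases none passed over all libraries, while 7 passed on adjusted p without DMSO replicate 3, 3 higher and 4 lower. Their median was -0.17 and -0.06 in these fits, and the log2 differences over all libraries were -0.25 for CDC25B, 0.28 for CDC20 and 0.16 for CCNB1. Of 10 genes that act in the turnover of cyclins and CDK inhibitors, SKP1, the shared adaptor of SCF ubiquitin ligases, was called higher at 0.51 (edgeR adjusted p = 0.0261). This call too was lost without DMSO replicate 3, where SKP1 was at 0.39 and under the fold threshold (edgeR adjusted p = 1.74e-08). In that fit 2 others of the list were called higher. AMBRA1 and GSK3B had differences of -0.04 and 0.12 over all libraries. Without DMSO replicate 3 they were at -0.11 and 0.23, and both passed on adjusted p (0.0280 and 0.000100 in edgeR). The list median was 0.05 over all libraries and -0.03 without DMSO replicate 3.

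The listed targets of the transcription factor p53 other than CDKN1A, genes of the DNA damage response, did not move as one. Of 18 such genes 3 rose, GADD45A by 1.39 (edgeR adjusted p = 0.00205), BTG2 by 0.77 (edgeR adjusted p = 0.0111) and RRM2B by 0.54 (edgeR adjusted p = 0.0246), and none was called lower. GADD45A, which restrains cell cycle progression under stress, stood at 135, 137 and 95.8 CPM in DMSO and at 316, 319 and 329 CPM in erianin. All 3 were also called without DMSO replicate 3, when 8 of 18 genes of the list were called, 7 higher and 1 lower, against 17.5% of all genes. BAX and TNFRSF10B, the other most abundant genes of this list, had log2 differences of -0.03 and 0.07. The median of the list was 0.20 over all libraries, beside 0.20 for CDKN1A itself, and 0.04 without DMSO replicate 3, beside 0.02 for CDKN1A.

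Of 20 transcription factors known to act on promoters of the members, 1 was called higher and 1 lower over all libraries. The log2 differences of the list ran from -0.52 to 0.66 over all libraries. KLF4, an activator of CDKN1A, rose by 0.66 (edgeR adjusted p = 0.00656), and by 0.73 without DMSO replicate 3. On adjusted p alone 3 factors were higher and 3 lower, among them KLF6 and STAT3 as higher and SMAD3 and ATF4 as lower, of which KLF6, STAT3 and SMAD3 are named after their values were seen. FOSL1, the most abundant factor, had a log2 difference of -0.21 and JUN of 0.23. The list median was 0.10 over all libraries and 0.12 without DMSO replicate 3, when 14 of 20 factors passed on adjusted p, 10 higher and 4 lower.

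**Figure D5:**
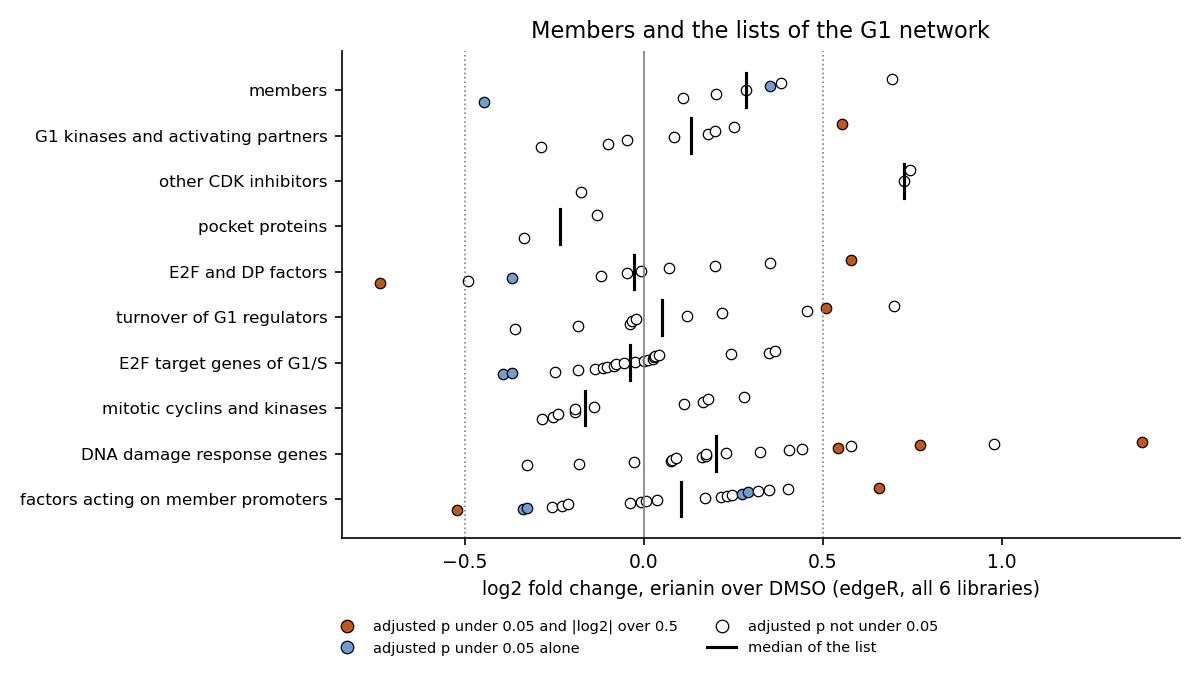
log2 fold change of erianin over DMSO (horizontal axis, edgeR over all 6 libraries) for each tested gene of the members and of the 9 lists around them, with filled points for genes past the adjusted p of 0.05 (orange also past a log2 change of 0.5), vertical bars at list medians and dotted lines at 0.5 in either direction. Most points are open and lie between the dotted lines; GADD45A, at 1.39, is the furthest to the right, and the median of the members stands at 0.29.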

How the data were processed

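RNA sequencing covered 6 CAL62 libraries, 3 with DMSO and 3 with 50 nM erianin, grouped by sample title. The authors deposited unnormalized counts of reads on each gene and a table of TPM values. Over rows with an identifier, the TPM columns sum to 59.1% (DMSO replicate 3) to 78.3% (erianin replicate 3) of the nominal total. Per the submitters' processing notes, fastp 0.23.2, STAR 2.7.10, featureCounts 2.0.1, StringTie 2.2.1 and GRCh38 were used, without role or order. The strand setting and annotation are not given in the sources used here. The labels name an Illumina library protocol, whereas the study's methods name a BGISEQ-500 instrument.

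Of 65807 rows, 26480 without an identifier (0.00385% to 0.00515% of counts) were left out. Counts were tested with edgeR 4.0.16 (TMM, filterByExpr by group, glmQLFit, glmQLFTest) in R 4.3.3. Standard errors came from the F statistic. Settings tried were DESeq2 1.42.0, other factors and filters, limma 3.58.1 on TPM, a replicate block, length and GC offsets, other thresholds and each library left out. Leaving out DMSO replicate 3 with the GC offset or with adjusted p alone was added after seeing the data. The code was tested on simulated counts. The count interval and floor cover counting error only. Sequence windows came from RefSeq and shared runs from GENCODE 29 transcripts, which stood in for a comparison of proteins.

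The members and lists were chosen with earlier results of these data known. Genes named were all members, the lists of G1 kinases, other CDK inhibitors, pocket proteins and chromosome 9 neighbours, and in other lists the 3 with the highest mean CPM and up to 4 called genes. RBL1 and CKS1B matched no row and were not analysed here, and some genes that this rule selects are not reported here. Python 3.11.15, pandas 2.3.3 and SciPy 1.17.1 were also used.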

Additional observations from a re-analysis of the deposited data

How the results depend on the processing

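Each of the 7 tested members kept the sign of its log2 change in all 20 fits. Among other genes CCNH, MNAT1 and CDKN3, and the medians of the turnover and E2F target lists, changed sign without DMSO replicate 3. Members called higher numbered 0 over all libraries, 2 (CCNE1 and CDKN1B) with limma on log2(TPM + 1), on log2(TPM + 0.1) and on log2(TPM + 1) without a filter, and 1 with DMSO replicate 3 left out and a GC offset. Members called lower numbered 0, and 1 (CCND1) with a gene length offset and with DMSO replicate 3 left out and a GC offset. With adjusted p alone 1 was higher and 1 lower, and with DMSO replicate 3 also left out 3 were higher and 1 lower. Leaving out each library in turn gave 0 to 1 higher (1 without DMSO replicate 3) and 0 lower. The TPM fits moved the median of all genes to 0.18, 0.20 and 0.12 on the log2 scale, and their calls over all genes to 1098 higher and 94 lower with log2(TPM + 1), from 688 and 431. The split was 822 and 299 with upper-quartile factors and 661 and 674 with the GC offset.

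Of the other G1 pathway genes, 7 were called higher and 2 lower. Lower calls numbered 1 with upper-quartile factors or a gene length offset, 4 with DMSO replicate 3 left out and a GC offset, and 7 with adjusted p alone. Higher and lower calls were 12 and 0, 14 and 1, and 12 and 0 with limma on log2(TPM + 1), on log2(TPM + 0.1) and without a filter, and 1 and 0 both with glmTreat and with a log2 threshold of 1. Leaving out each library in turn gave 1 to 12 higher and 1 to 4 lower, with 12 and 4 without DMSO replicate 3.

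Libraries with the same replicate number did not deviate together (correlations 0.00138, 0.0253 and -0.0329), and number 2 alone correlated best with its own. With the replicate block, 3 pathway genes were called higher, all genes called fell from 1119 to 665, and CDKN1B had an edgeR adjusted p of 0.0942. For single members, 107 comparisons with a setting kept their side of the adjusted p threshold, 12 gained it and 14 lost it. From CPM the CCND1 share changed by -8.94 points, since gene length is then not taken into account. The reads of CCND2, CDKN2A and CDKN2B were too few to pass the low-count filter, and CCNE2 rests on 30 to 144 reads per library.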
